A study of Homo sapiens with 8 samples.

Results

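The mock RNA of A498 and 786-O, both renal cancer lines, was set against the mock RNA of MDA-MB-231, a breast cancer line, and HCT116, a colorectal cancer line. Mock cells are labelled as not transfected. Their RNA lay in the green (Cy3) channel of every array, so the 4 arrays of the renal lines were compared with the 4 arrays of the other lines, which are all 8 arrays of the series. Each line had 2 arrays, and the labels do not say whether both carried the same RNA extract. The lines were therefore the units of the comparison (n = 2 lines per side), and a gene counted only where both renal lines lay above, or both lay below, both other lines. The red (Cy5) channel held RNA of the same line after transfection of miR-139-5p or miR-139-3p (A498 and 786-O), si-GINS1 (MDA-MB-231) or miR-490-5p or miR-490-3p (HCT116), and was used here only as an alternative reading. Each line comes from 1 tumour and grew in RPMI 1640 or DMEM, so origin, donor and medium cannot be told apart in a comparison of 2 lines with 2. An array also cannot tell a difference in cell composition from one in RNA per cell.

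The kidney tubule arises under transcription factors such as PAX2, PAX8 and LHX1, and many renal carcinomas keep part of that set. Clear cell renal carcinoma is known for loss of VHL, which marks the hypoxia-inducible factors (HIF) for destruction. Without VHL, HIF proteins persist in normal oxygen and raise genes of lipid storage, vessel growth, glucose use and matrix. Epithelial and mesenchymal genes describe a further axis, since carcinoma lines differ widely in how much of the epithelial junction machinery they keep.

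The side of the comparison could not be separated from the place on the slide. All 4 renal arrays lay in column 1 of the slide and the other 4 in column 2. With background not subtracted, the mean Cy3 brightness of a spot was 203 to 226 on the renal arrays and 380 to 414 on the other arrays. The mean Cy5 brightness was 249 to 324 against 503 to 641. Between 26006 and 27540 spots per renal array were well above background, against 27404 to 29526 on the other arrays. Signals were scaled to a common distribution before the comparison, which removes the overall gap but not every effect of it, and the part of slide column and brightness in the results was not tested.

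Of 43544 genes or transcript names on the array, 19900 were well above background on both arrays of at least 2 lines and were tested. Both renal lines lay above both other lines for 4106 genes (20.6% of those tested) and below them for 4630 (23.3%). The sides overlapped for the remaining 11164. The gap between the nearest lines of the 2 sides was at least 1 log2 unit for 359 genes higher in the renal lines (1.8%) and for 169 genes lower (0.849%), and at least 2 log2 units for 83 and 39 genes. With the arrays scaled by their 75th percentile instead, the same rule gave 272 higher and 455 lower, so the split between the directions rests on the scaling. The renal lines also differed from each other, since A498 and 786-O lay at least 1 log2 unit apart for 1930 genes, and MDA-MB-231 and HCT116 for 2420.

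No single gene passed the test across all genes. In limma's test of 2 lines against 2 with Benjamini-Hochberg adjustment, 0 genes (0%) had an adjusted p under 0.05 with the sides apart, 2137 had an unadjusted p under 0.05, and the lowest adjusted p was 0.137. For a single gene, the smallest p that an exact two-sided permutation of 2 lines against 2 can give is 0.333. Genes are therefore described below by their levels and by the gap between the nearest lines, and none is said to have changed. A level is the normalized log2 Cy3 signal, means carry the SD over the 2 lines of a side, and differences are renal minus other with the standard error (SE) of the limma fit.

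**Figure D1:**
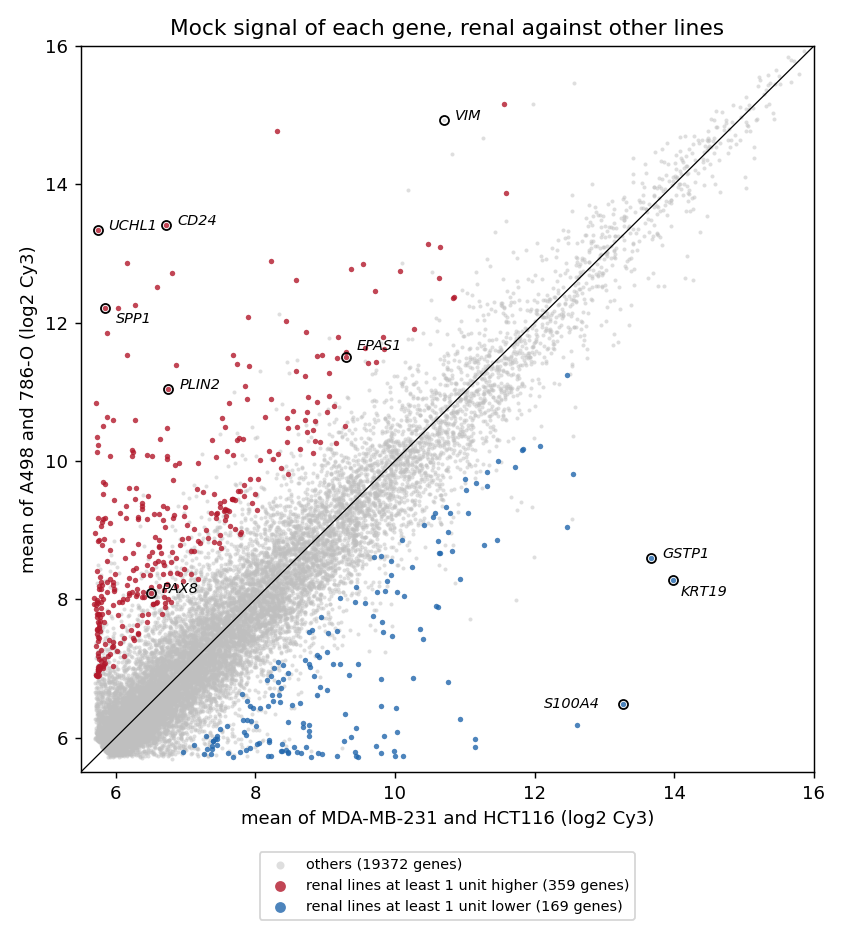
Mean normalized log2 Cy3 signal of the 2 renal lines (vertical axis) against that of MDA-MB-231 and HCT116 (horizontal axis), 1 point per gene tested. Red points are the 359 genes with the renal lines at least 1 log2 unit higher and blue points the 169 with the renal lines at least 1 log2 unit lower. Grey points include genes such as VIM, whose means differ between the sides because 1 line, HCT116, was low.

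The widest gaps with the renal lines higher belonged to genes of quite different roles. UCHL1, a ubiquitin hydrolase best known from neurons (chromosome 4, 41270340 to 41270399 on hg19, the position of its probe), read 13.19 and 13.20 on the A498 arrays and 13.55 and 13.45 on the 786-O arrays. It read 5.73 and 5.74 in MDA-MB-231 and 5.73 and 5.76 in HCT116. The renal signals were bright on every array, while none of the 4 other arrays was well above background. The renal lines were at least 184-fold higher, taking the lowest measurable signal of each array as the level of the dim side.

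SPP1, the secreted phosphoprotein osteopontin, read 12.66 and 12.64 on the A498 arrays and 11.78 and 11.75 on those of 786-O. Its readings were 5.80 and 5.77 for MDA-MB-231 and 5.92 and 5.91 for HCT116. CD70, the ligand of the lymphocyte receptor CD27, read 13.46, 13.52, 12.33 and 12.14 on the renal arrays and 5.87 to 6.45 on the others. Both genes thus separated the sides by over 5 log2 units, and the difference was 6.36 ± 0.36 for SPP1 and 6.69 ± 0.54 for CD70 (SE). CBS, which makes cystathionine from homocysteine, averaged 11.85 ± 0.45 in the renal lines and 5.87 ± 0.05 in the others (SD, n = 2 lines). GAL3ST1, the sulfotransferase that makes sulfatide, averaged 12.21 ± 0.56 against 6.04 ± 0.35.

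IGFBP3, a carrier of insulin-like growth factors, averaged 12.72 ± 0.35 in the renal lines, and its level in the other lines was 7.47 in MDA-MB-231 and 6.16 in HCT116. SPOCK1, a secreted proteoglycan, was at least 32.3-fold higher in the renal lines, since no other array read it well above background. The same kind of bound was 25.6-fold for QPRT, an enzyme of NAD synthesis, 21.2-fold for KCNMA1, the pore subunit of a calcium-activated potassium channel, and 19.7-fold for LDOC1. For KCNMA1 the 4 probes that passed the filter on dim signals gave differences from 0.92 to 4.48, so the size depends on the probe.

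A pair of genes in this group needs care over what its probe reads. CD24, a surface glycoprotein, averaged 13.41 ± 0.96 in the renal lines, 5.79 in MDA-MB-231 and 7.65 in HCT116, but the array places its probe on chromosome Y, where a near-identical copy lies, so the value may add up copies. MIEF1, a receptor protein of mitochondrial fission, read 11.73 to 12.59 on the renal arrays and 6.19 to 6.40 on the others with 1 probe, a difference of 5.97. Its other probes gave 0.41 and 0.09, and under 75th percentile scaling another probe stood for the gene and the difference was -0.13. The wide gap of MIEF1 is therefore a property of 1 probe.

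**Figure D2:**
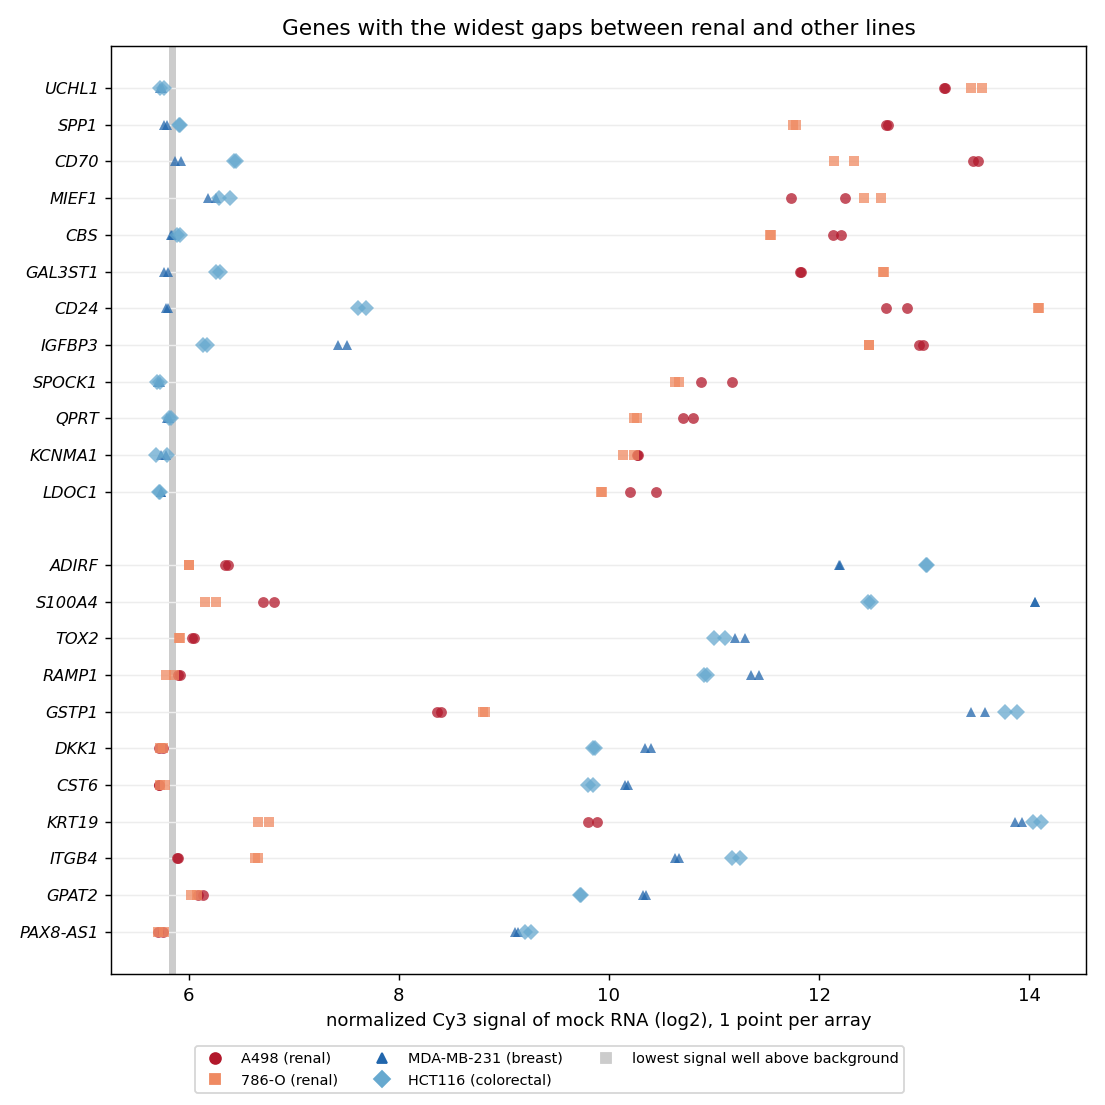
Normalized log2 Cy3 signal (horizontal axis) on each of the 8 arrays for 12 genes with the widest gap upward (top block) and 11 downward (bottom block), 1 point per array, with colour and shape giving the line. The grey band spans the lowest signals that were well above background, and signals of different genes come from different probes and are not comparable in height.

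Genes lower in the renal lines were led by ADIRF, a regulator of fat cell formation. It read 6.34 and 6.37 on the A498 arrays and at most 6.01 on those of 786-O, against 12.20 and 12.19 for MDA-MB-231 and 13.01 and 13.02 for HCT116. S100A4, a calcium-binding protein often counted as mesenchymal, read 6.71 and 6.82 on the A498 arrays, 6.16 and 6.26 on those of 786-O, 14.06 and 14.05 for MDA-MB-231 and 12.46 and 12.49 for HCT116. Its difference was -6.78 ± 0.66 (SE), the largest in size of the 11 lower genes named here, and it was still well above background on all 4 renal arrays. GSTP1, a glutathione transferase that detoxifies electrophiles, averaged 8.60 ± 0.30 in the renal lines and 13.67 ± 0.22 in the others (SD, n = 2 lines), 33.6-fold lower and still well measured on every array.

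TOX2, a nuclear HMG-box protein, averaged 5.98 ± 0.09 in the renal lines against 11.15 ± 0.14. RAMP1, the partner of the calcitonin receptor-like receptor, averaged 5.87 ± 0.06 against 11.15 ± 0.33, and its probes gave differences of -5.29 and -3.04. The secreted Wnt inhibitor DKK1 and the protease inhibitor CST6 were at or near the floor on all 4 renal arrays, which made them at least 19.1-fold and 17.7-fold lower there. ITGB4, the integrin chain of hemidesmosomes, averaged 6.27 ± 0.54 against 10.93 ± 0.40. GPAT2, a mitochondrial acyltransferase, averaged 6.08 ± 0.04 against 10.04 ± 0.43, with differences from -4.30 to -0.79 over its 3 probes that passed the filter.

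The adjusted p of limma ran from 0.137 to 0.261 for the 12 higher genes named here and from 0.137 to 0.362 for the 11 lower ones. In the Cy5 channel, 524 of all 528 genes with a gap of at least 1 log2 unit lay on the same side, and 448 again had a gap of at least 1. That channel holds RNA of the same lines on the same spots, so it is not an independent sample.

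The label of the renal lines was checked against kidney markers. Of 6 markers (PAX8, PAX2, LHX1, CDH6, CDH16 and LRP2) all 6 were well above background in A498 and in 786-O, against 3 in MDA-MB-231 and 4 in HCT116. PAX8, LHX1 and LRP2 were well above background in all 4 lines. LRP2 read 8.61 in A498 and 8.95 in 786-O, against 8.01 in MDA-MB-231 and 7.56 in HCT116. The other lines were less clear. Of 7 colon markers HCT116 had 2 well above background, CDX2, the intestinal homeobox factor, at 7.61 against 5.73 to 5.75 in the other lines, and CDX1 at 6.81. CDX1 was well above background in all 4 lines and highest in A498 (7.11), while CDH17, VIL1, GPA33, CEACAM5 and LGR5 were not well above background in HCT116. Of 7 breast markers MDA-MB-231 had 4 well above background, GATA3 (6.91), ERBB2 (8.48), ESR1 and TFAP2C, and not PGR, KRT5 and KRT14. ERBB2, ESR1 and TFAP2C were well above background in all 4 lines, and ERBB2 read 9.75 in A498 and 8.49 in 786-O. Of 11 markers of blood, vessel and fibroblast cells, 2 to 5 were well above background per line, at levels up to 6.70 save for CD14 at 8.28 in MDA-MB-231.

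Of 26 kidney transcription factors, 12 were tested. The renal lines lay higher for 6 (50%, beside 20.6% of all genes tested), with a gap of at least 1 log2 unit for 3 (25%, beside 1.8%), and lower for 1 (8.33%, beside 23.3%). Of the 5 well above background in all 4 lines, 2 lay higher, both with such a gap, and 0 lower. The median difference was 0.29 against -0.02 over all genes tested, 0.44 under 75th percentile scaling and 0.74 without MDA-MB-231. LHX1, a homeobox factor needed to form the nephron, read 9.51 and 9.59 on the A498 arrays and 10.59 and 10.62 on those of 786-O, and it averaged 5.99 for MDA-MB-231 and 6.48 for HCT116. Every renal array lay above every other array, and the difference was 3.84 ± 0.47 (SE). PAX8, a defining factor of kidney epithelium, read 8.20 and 8.04 in A498 and 8.08 and 8.03 in 786-O, against 6.69 and 6.73 in MDA-MB-231 and 6.33 and 6.29 in HCT116.

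PAX8-AS1, transcribed next to PAX8 on the opposite strand, went the other way. With the probe used it read 5.71 to 5.77 on the renal arrays, 9.11 and 9.14 in MDA-MB-231 and 9.20 and 9.26 in HCT116. That is at least 9.98-fold lower in the renal lines, where no array was well above background. All 5 of its probes lay lower there, but with differences from -3.44 to -0.27, so the size depends on the probe. SALL1, a zinc finger factor of the nephron progenitor, was at least 2.11-fold higher in the renal lines. PAX2 was well above background in HCT116 as well (6.88), so its gap was 0.93.

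Of 46 kidney tubule proteins, 30 were tested, and the renal lines lay higher for 10 (33.3%, beside 20.6% of all genes tested) and lower for 8 (26.7%, near the 23.3% of all genes). Of the 15 well above background in all 4 lines, 4 lay higher and 3 lower, and 2 of the higher ones had a gap of at least 1 log2 unit. The list had a median difference of 0.13, and it was 0.28 under 75th percentile scaling, 0.27 without 786-O, 0.25 without MDA-MB-231 and 0.09 without A498. All 4 tested members with a gap of at least 1 log2 unit lay higher (13.3%, beside 1.8% of all genes tested). They were DPP4 (difference 3.00 ± 0.25) and ANPEP (2.38 ± 0.38), both brush border peptidases, the copper carrier CP (2.26 ± 0.53) and kidney cadherin CDH16, at least 3.80-fold higher since no other array was above background. The renal lines were not alike, since the tubule cadherin CDH6 read 10.12 in 786-O and 6.34 in A498. FXYD2, the gamma subunit of the sodium pump, read 8.80 in 786-O alone, and the transporters SLC22A6, SLC22A2 and SLC12A1 fell below the filter.

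**Figure D3:**
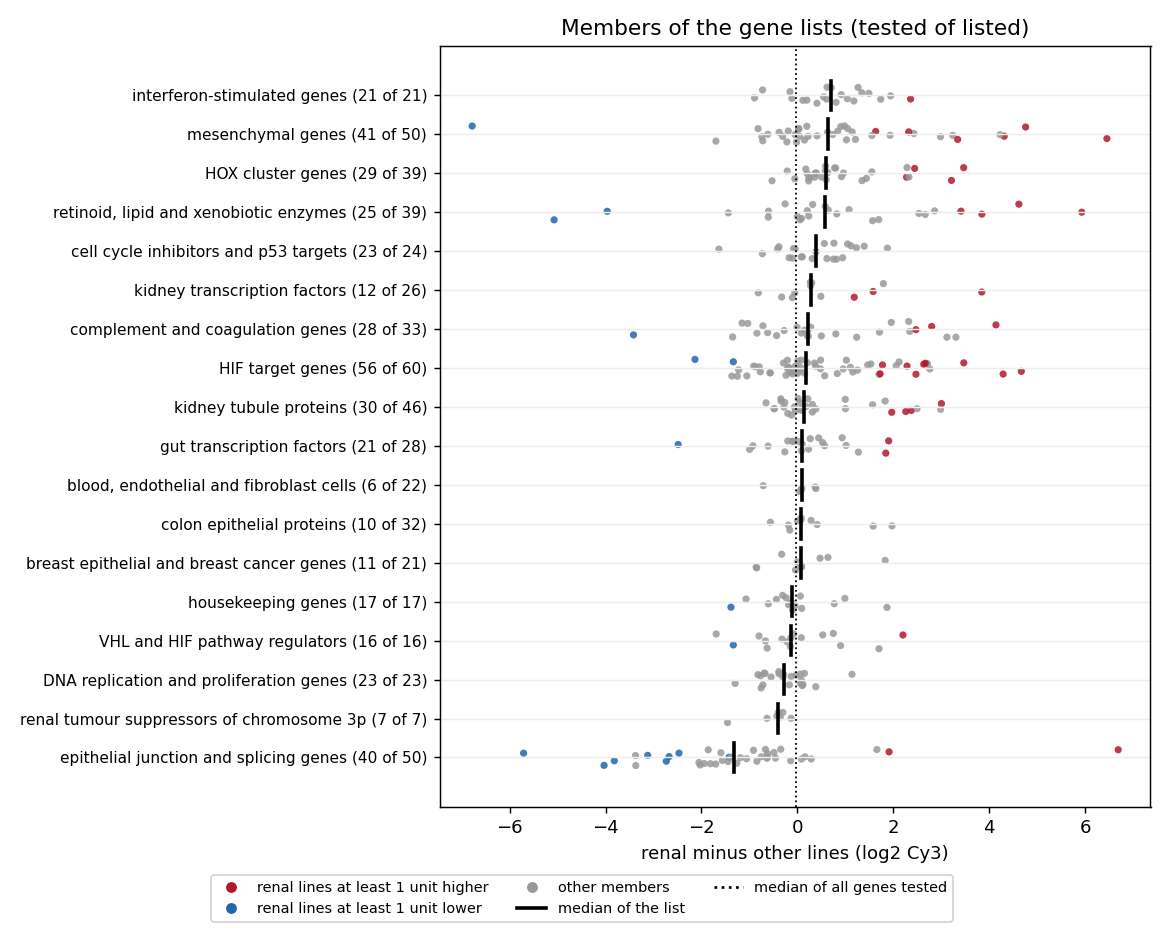
Renal minus other difference in log2 Cy3 (horizontal axis) of each tested member of the 18 gene lists, 1 point per gene, with the number tested of the number listed. Red and blue points have a gap of at least 1 log2 unit upward and downward, the bar is the median of the list and the dotted line the median of all genes tested (-0.02). Epithelial junction genes have the lowest median (-1.32) and interferon-stimulated genes the highest (0.71).

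Among the regulators of the HIF pathway, all 16 genes listed were tested, 4 lay higher in the renal lines and 5 lower (25% and 31.2%, beside 20.6% and 23.3% of all genes tested). The median difference was -0.14, and it was 0.03 without 786-O. EPAS1, which encodes HIF-2 alpha, read 11.45 and 11.72 in A498 and 11.44 and 11.40 in 786-O, against 9.03 and 9.09 in MDA-MB-231 and 9.52 and 9.56 in HCT116. All renal arrays lay above all others, and the difference was 2.20 ± 0.22 (SE). HIF1A, the other main alpha subunit, read 9.14 on both A498 arrays and 5.72 and 5.73 on those of 786-O, with 9.79 and 9.78 for MDA-MB-231 and 8.42 and 8.51 for HCT116. It was therefore at background in 786-O alone, and the sides overlapped. The prolyl hydroxylase gene EGLN3, itself a HIF target, had levels of 8.49, 7.08, 6.22 and 5.95 in A498, 786-O, MDA-MB-231 and HCT116.

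Renal tumour suppressor genes were listed as a group of 7, of which VHL, PBRM1, BAP1, SETD2, RASSF1 and FHIT lie on chromosome 3p and KDM5C lies on chromosome X by the array annotation. The renal lines lay lower for 6 (85.7%, beside 23.3% of all genes tested) and higher for 0, with no gap of 1 log2 unit. The list had a median difference of -0.40, and -0.72 under 75th percentile scaling. PBRM1, a subunit of a chromatin remodelling complex, read 7.16 and 6.92 on the A498 arrays, 7.67 and 7.62 on those of 786-O, 9.11 and 9.06 for MDA-MB-231 and 8.51 on average for HCT116. Its difference was -1.46 ± 0.34 with the probe used and -0.51 with its other probe. VHL mRNA averaged 11.81 in A498 and 12.06 in 786-O against 12.74 and 12.39, and a transcript level says nothing of whether the protein works.

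HIF target genes were the largest list. Of 60 genes, 56 were tested, and the renal lines lay higher for 22 and lower for 7, with gaps of at least 1 log2 unit for 9 and 2. These are 39.3% and 12.5%, beside 20.6% and 23.3% of all genes tested, and for the wide gaps 16.1% and 3.57%, beside 1.8% and 0.849%. With the arrays scaled by their 75th percentile 16 lay higher and 16 lower. The median difference was 0.18, it was 0.32 without A498 or without 786-O, 0.40 without MDA-MB-231 and 0.43 without HCT116, and it was -0.07 under 75th percentile scaling, so the list as a whole had no direction that held under both scalings. CA9, a classical target, was well above background on 1 of the 8 arrays, and COXFA4L2, listed under its former name NDUFA4L2, also fell below the filter. The 9 wide gaps upward fell into a few roles.

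In lipid handling, PLIN2, which coats lipid droplets, read 11.64 and 11.85 on the A498 arrays and averaged 10.35 for 786-O, against 6.99 for MDA-MB-231 and 6.52 for HCT116. ANGPTL4, an inhibitor of lipoprotein lipase, read 13.24 and 13.29 on the A498 arrays, 12.52 and 12.53 on those of 786-O, 6.96 and 6.86 for MDA-MB-231 and 9.56 and 9.51 for HCT116. Both were thus far higher in the renal lines, by 4.29 ± 0.59 and 4.67 ± 1.07 (SE), and the 3 probes of PLIN2 that passed the filter ranged from 0.54 to 4.29.

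In vessel growth, VEGFA averaged 10.67 and 12.09 for A498 and 786-O and 7.26 and 8.55 for MDA-MB-231 and HCT116, a difference of 3.47 ± 0.76. ADM, which encodes the vessel-relaxing peptide adrenomedullin, had levels of 12.67, 13.06, 8.37 and 11.84 in the same order, so HCT116 came within 0.83 of the renal lines. In matrix modification, PLOD2 and P4HA2, both hydroxylases of collagen, differed by 2.64 ± 0.28 and 1.78 ± 0.35, and the lysyl oxidase family member LOXL2 by 2.67 ± 0.91. NDRG1, a stress-responsive gene, differed by 2.29 ± 0.36.

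Glucose metabolism was mixed. PFKFB3, which makes an activator of glycolysis, had levels of 9.08, 9.80, 7.79 and 7.63 in A498, 786-O, MDA-MB-231 and HCT116, though its other probe gave a difference of 0.24. The glucose transporter SLC2A1 had levels of 11.48, 12.13, 10.54 and 11.40. The sides overlapped for LDHA (0.08 ± 0.28) and PGK1 (-0.10 ± 0.31). The enolase gene ENO2 lay lower in the renal lines by 0.79 log2 units and the pyruvate dehydrogenase kinase gene PDK1 by 0.87. The wide gaps downward were ANKRD37 (-2.13 ± 0.59) and HIF3A (-1.34 ± 0.20), a further alpha subunit gene, whose other probe gave 0.02.

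**Figure D4:**
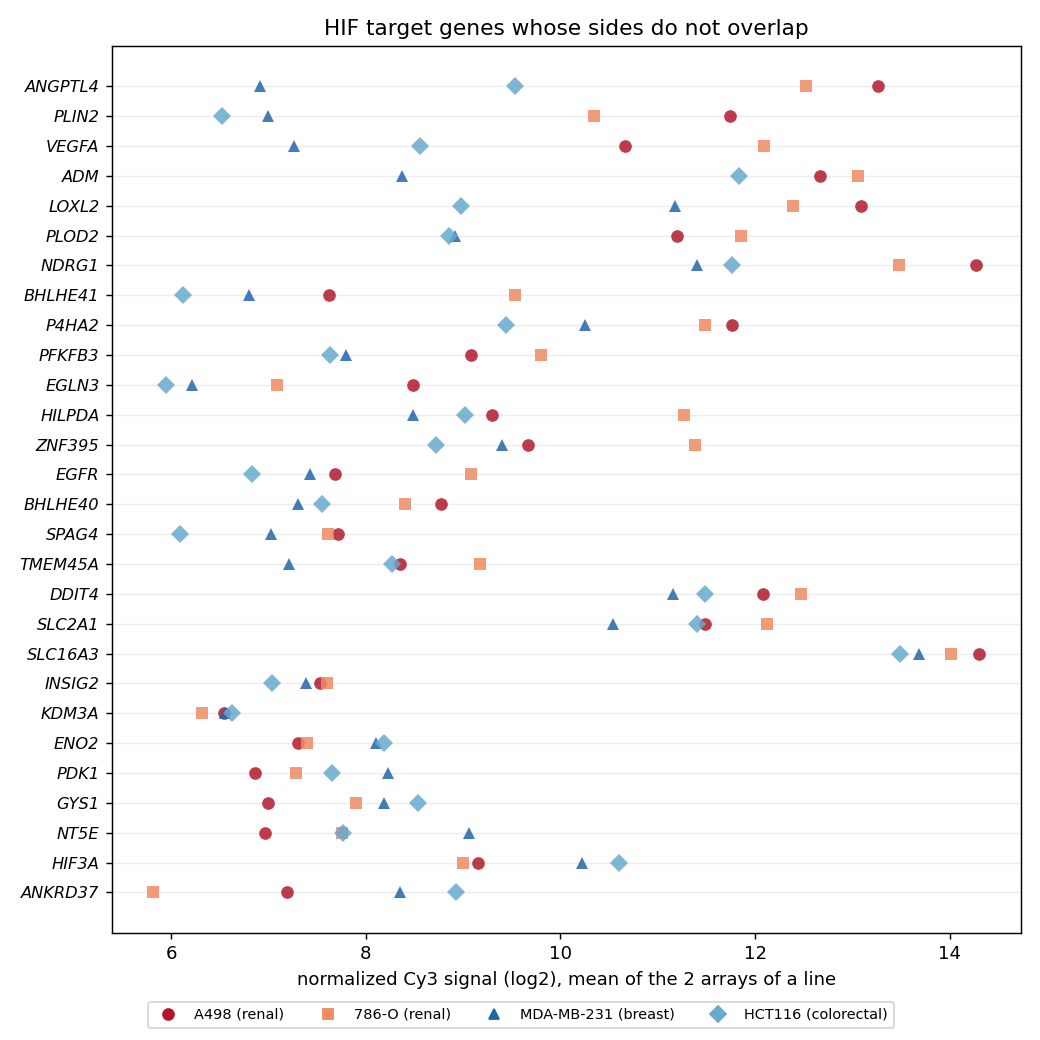
Normalized log2 Cy3 signal (horizontal axis, mean of both arrays of a line) of 28 HIF target genes whose sides do not overlap, ordered by difference, 1 point per line. The 21 genes at the top have both renal lines above both other lines, and the 7 at the bottom have both below.

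The promoters of these genes were read for the core of the hypoxia response element, ACGTG or GCGTG on either strand. ACGTG on 1 strand can overlap ACGTG on the other, as in CACGTG, which counts as 2 matches. In the RefSeq promoter table for GRCh38.p14, which gives 250 bases before and 50 after the start of a gene, 13213 of 27305 promoters (48.4%) held at least 1 match, as did 7101 of 11588 (61.3%) for the genes tested. Of the 48 HIF target genes found in the table, 38 held a match (79.2%), and among the 5 with the renal lines at least 1 log2 unit higher 4 did. Windows before the start site are shown for the 3 with the widest gaps, with matches in capitals, read 5′ to 3′ on the strand of the gene. PLIN2 was at chr9:19127526-19127590 (minus strand), ANGPTL4 at chr19:8363905-8363955 (plus) and PLOD2 at chr3:146161296-146161360 (minus).
PLIN2: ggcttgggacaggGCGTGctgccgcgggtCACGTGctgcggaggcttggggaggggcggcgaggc
ANGPTL4: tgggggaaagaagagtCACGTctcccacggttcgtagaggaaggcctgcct
PLOD2: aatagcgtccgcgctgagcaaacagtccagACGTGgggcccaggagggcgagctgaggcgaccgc
A match is a run of letters and not a measured binding site. PLIN2 held 5 matches in its 300 bases, PLOD2 held 3 and ANGPTL4 held 1, while P4HA2 held 0.

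Epithelial junction and splicing genes had the lowest median of the 18 lists. Of 50 genes, 40 were tested, 3 lay higher in the renal lines and 21 lower, with gaps of at least 1 log2 unit for 2 and 8. These are 7.5% and 52.5%, beside 20.6% and 23.3% of all genes tested, and for the wide gaps 5% and 20%, beside 1.8% and 0.849%. Of the 26 well above background in all 4 lines, 1 lay higher and 11 lower, with such gaps for 0 and 4. The other tested members passed the filter through only some of the lines. The median difference was -0.99 for those 26 and -1.32 for all 40 tested. The latter was -0.39 without HCT116 and -1.95 without MDA-MB-231. The median of the list was highest in HCT116, at 1.28 relative to the mean of the 4 lines, against -0.18 for MDA-MB-231, -0.49 for A498 and -0.69 for 786-O. Of the 10 members that failed the filter, all were well above background in HCT116 alone, among them the splicing factor ESRP1 (8.26) and the junction regulator GRHL2 (6.79).

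KRT19, a keratin of simple epithelia, read 9.80 and 9.89 on the A498 arrays, 6.77 and 6.66 on those of 786-O, 13.93 and 13.87 for MDA-MB-231 and 14.11 and 14.04 for HCT116. Both renal lines lay below the others, and 786-O well below A498. EPCAM, the epithelial adhesion molecule, had levels of 6.08, 5.97, 7.90 and 11.79 in A498, 786-O, MDA-MB-231 and HCT116. The trafficking gene RAB17 was at least 8.23-fold lower in the renal lines with the probe used, though its other probe gave -0.42. CDH1, the epithelial cadherin, was above background only in MDA-MB-231 (6.21) and HCT116 (9.17), and KRT7 had levels of 9.99, 9.63, 13.69 and 11.40. Against the rest of the list, CLDN1, a tight junction protein, was at least 3.62-fold higher in the renal lines, and CD24 is described above.

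Mesenchymal genes leaned the other way. Of 50 genes 41 were tested, 15 lay higher in the renal lines and 3 lower, with gaps of at least 1 log2 unit for 6 and 1. These are 36.6% and 7.32%, beside 20.6% and 23.3% of all genes tested, and for the wide gaps 14.6% and 2.44%, beside 1.8% and 0.849%. Of the 28 well above background in all 4 lines, 8 lay higher and 2 lower, with such gaps for 2 and 1. The others passed the filter through only some of the lines. The median difference was 0.43 for those 28 and 0.63 for all 41 tested. The latter was 0.26 without HCT116, 0.996 without MDA-MB-231 and 0.36 under 75th percentile scaling. The median of the list lay at -0.68 in HCT116 and at 0.15 to 0.24 in the other 3 lines, relative to the mean of all 4. CDH2, N-cadherin, read 10.08 and 10.07 on the A498 arrays and 11.11 and 11.29 on those of 786-O, against an average of 5.98 for MDA-MB-231 and 5.78 for HCT116. MDA-MB-231 thus lay with HCT116 for this gene, 4.10 log2 units below A498, and its probes gave differences of 2.80 and 4.76.

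SNAI1, a repressor of CDH1, had levels of 10.02, 10.13, 6.44 and 7.03 in A498, 786-O, MDA-MB-231 and HCT116. TGFBI, a matrix protein induced by TGF-beta, had levels of 14.22, 15.30, 10.80 and 5.82, and SPARC, a collagen-binding protein, had levels of 11.76, 9.44, 5.85 and 6.71. WNT5A was at least 4.57-fold higher in the renal lines, with no other array above background. VIM shows why means alone mislead here. It had levels of 14.77, 15.10, 14.65 and 6.77, so its difference of 4.23 ± 3.08 came from HCT116 and its gap was 0.12.

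HOX cluster genes mark position along the body axis. Of 39 listed 29 were tested, 13 lay higher in the renal lines and 1 lower (44.8% and 3.45%, beside 20.6% and 23.3% of all genes tested). Only 6 members were well above background in all 4 lines, and of these 1 lay higher and 1 lower, with no gap of 1 log2 unit. The others passed the filter through only some of the lines. The list had a median difference of 0.60, and it was 0.21 without MDA-MB-231 and 1.31 without HCT116. The lowest median was that of MDA-MB-231 (-0.99 relative to the mean of the lines), against 0.08 in HCT116, 0.37 in A498 and 0.51 in 786-O. HOXB2 (difference 3.47 ± 0.29), HOXA3 (3.21 ± 0.49), HOXA4 (2.28 ± 0.25) and HOXD10 had gaps of at least 1 log2 unit. HOXD10 was at least 5.35-fold higher in the renal lines, with none of the 4 other arrays above background. HOXB2 rested on 1 of its 2 probes, since the other gave 0.49. HOXB13, a posterior HOX gene, was above background in HCT116 alone (7.56).

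Of 33 complement and coagulation genes 28 were tested, and 10 lay higher in the renal lines and 4 lower (35.7% and 14.3%, beside 20.6% and 23.3% of all genes tested). Of the 20 well above background in all 4 lines, 5 lay higher and 4 lower. Gaps of at least 1 log2 unit among these 20 numbered 0 upward and 1 downward. The median difference was 0.22, and it was 0.03 without HCT116, 0.73 without MDA-MB-231, 0.13 without A498, 0.38 without 786-O and 0.09 under 75th percentile scaling. The complement protease CFI, which cleaves C3b, read 7.97 and 7.86 on the A498 arrays, 9.49 and 9.55 on those of 786-O, 6.09 and 6.08 for MDA-MB-231 and 5.75 and 5.76 for HCT116. All renal arrays lay above all others, and its probes gave differences of 1.31 and 2.80. C3 itself was highest in A498, with levels of 10.10, 6.67, 6.09 and 5.99. PLAU, the plasminogen activator urokinase, lay lower in the renal lines, with levels of 7.45, 10.65, 12.86 and 12.07 and differences of -3.42 and -1.51 from its probes.

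Of 39 enzymes of retinoid, lipid and xenobiotic metabolism 25 were tested, with the renal lines higher for 6 (24%, near the 20.6% of all genes tested) and lower for 3 (12%, beside 23.3%). Gaps of at least 1 log2 unit numbered 4 upward and 2 downward (16% and 8%, beside 1.8% and 0.849% of all genes tested). Of the 16 well above background in all 4 lines, 3 lay higher and 2 lower, with a median difference of 0.28. All 25 tested had a median difference of 0.58. It was 0.13 without A498, 1.09 without 786-O and 0.31 under 75th percentile scaling. AKR1B10, an aldo-keto reductase, had levels of 14.26, 10.79, 7.32 and 5.86 in A498, 786-O, MDA-MB-231 and HCT116, and its near-identical copy AKR1B15 may share the signal. ALDH1A1, which makes retinoic acid, was at least 23.0-fold higher in the renal lines, though its other probe gave a difference of 1.74. APOL1, a serum lipoprotein component, had levels of 12.04, 11.02, 8.31 and 7.06. The acyl-CoA synthetase gene ACSL5 lay lower with GSTP1, at 6.70, 6.90, 11.37 and 10.16.

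The remaining lists showed wide gaps that were few in number. Of 28 gut transcription factors 21 were tested, with 7 higher in the renal lines and 4 lower (33.3% and 19%, beside 20.6% and 23.3% of all genes tested). FOXA2 (1.90 ± 0.43) and LEF1 (1.84 ± 0.29) had gaps upward of at least 1 log2 unit, and EHF, an epithelial ETS factor, was at least 5.15-fold lower in the renal lines. Wide gaps made up 9.52% of this list upward and 4.76% downward, beside 1.8% and 0.849% of all genes tested. Of 32 colon epithelial proteins 10 were tested, 5 lay higher (50%) and 0 lower. Of 21 breast genes 11 were tested, with 2 in each direction (18.2%). Of 22 genes of blood, endothelial and fibroblast cells 6 were tested, 4 lay higher (66.7%) and 0 lower, and their largest difference was 0.39.

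All 23 genes of DNA replication and proliferation were tested, and 5 lay lower in the renal lines (MCM3, CCNA2, MCM7, MCM5 and MCM6) and 0 higher. The 5 are 21.7%, near the 23.3% of all genes tested. The median difference was -0.29 and -0.68 under 75th percentile scaling, but A498 alone was low, with a median of -0.78 relative to the mean of the lines against 0.43 in 786-O, and the median difference was 0.26 without A498, -0.84 without 786-O and -0.13 without MDA-MB-231. GINS1, a subunit of the replicative helicase and the target of the siRNAs in the series, had levels of 8.35, 9.56, 8.95 and 8.67, and its sides overlapped. Of 24 cell cycle inhibitors and p53 targets 23 were tested, with 2 higher (8.7%, beside 20.6% of all genes tested) and 0 lower (beside 23.3%). Both shares were thus below those of all genes. These genes were likewise highest in A498. Their median difference was 0.39, and it was -0.22 without A498, 0.93 without 786-O and 0.16 without MDA-MB-231. Interferon-stimulated genes (21 of 21 tested, 5 higher, 0 lower, median 0.71) had a share of higher members of 23.8%, near the 20.6% of all genes. They lay at 1.34 and 0.58 relative to the mean of the lines in A498 and MDA-MB-231, and at -0.46 and -1.002 in 786-O and HCT116. Of these 21, IFI6 alone had a gap of at least 1 log2 unit (4.76%, beside 1.8% of all genes tested), and its difference was 2.36 ± 0.35 (SE). Without A498 the median difference of the list was -0.14, without HCT116 it was -0.13, without 786-O it was 1.602 and without MDA-MB-231 it was 2.06.

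Housekeeping genes gave the scale of what the scaling can do. Of 17 genes 3 lay higher in the renal lines and 4 lower (17.6% and 23.5%, near the shares over all genes), with a median difference of -0.12, and -0.64 with the arrays scaled by their 75th percentile. It was -0.22 without 786-O, -0.22 without HCT116 and -0.04 without A498. B2M, the light chain of HLA class I, had levels of 13.69, 12.93, 12.51 and 10.37.

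Chromosome arms were compared by the median difference of their tested genes, less the median of all genes, because clear cell renal carcinoma is known for loss of 3p and gain of 5q. For the 487 genes of 3p this median was -0.13, the third lowest of 41 arms after 11q (-0.17) and 19p (-0.14). Both renal lines lay below both other lines, at -0.09 in A498 and -0.03 in 786-O against 0.10 in MDA-MB-231 and 0.04 in HCT116. Of the 3p genes 184 (37.8%) lay lower in both renal lines and 66 (13.6%) higher, beside 23.3% and 20.6% of all genes tested. The 711 genes of 5q had a median of -0.08, thus not above the rest. The highest medians were those of 7p (0.14), 9p (0.14) and 5p (0.13), and for 5p the line farthest from the others was HCT116, at -0.17.

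**Figure D5:**
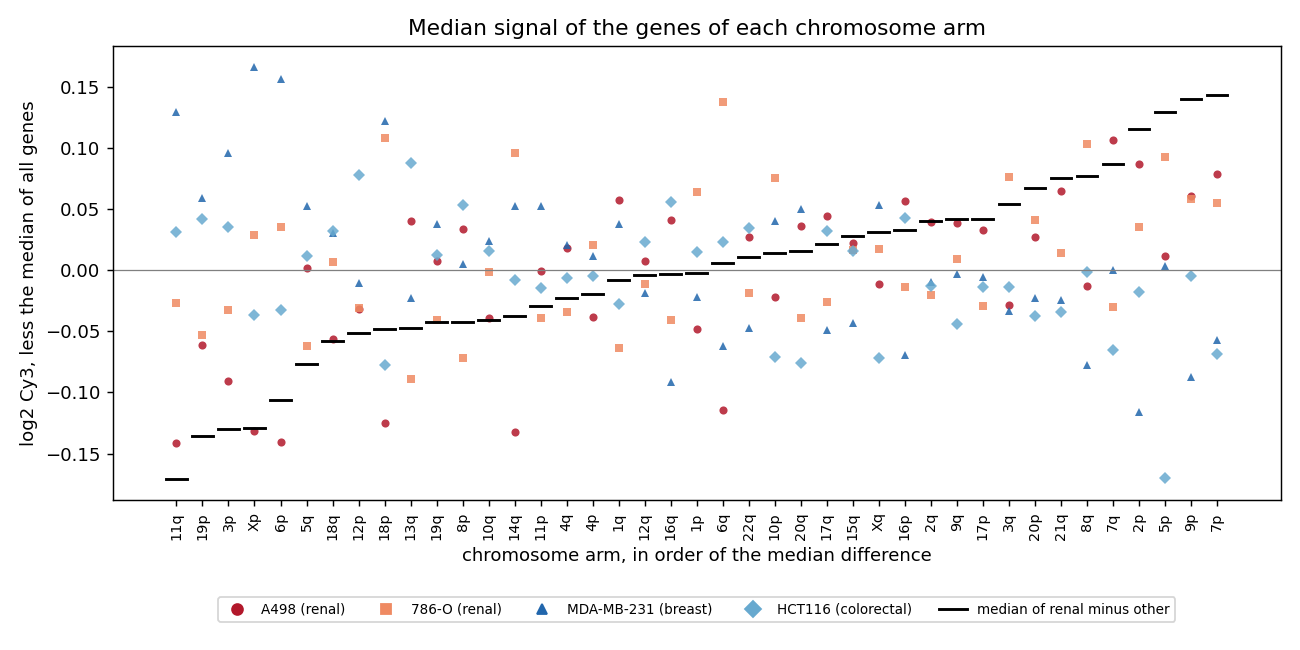
Median log2 Cy3 of the tested genes of each of 41 chromosome arms, less the median of all genes (vertical axis), with arms ordered by the median renal minus other difference (black marks). Points are the 4 lines relative to their mean, and 3p, next after 11q and 19p at the left, has both renal lines below 0.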

How the data were processed

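The 8 arrays were Agilent 2-colour expression arrays on 1 slide, scanned once. Per the file headers, the authors read them with Agilent Feature Extraction 11.5.1.1, with probe annotation on hg19. The deposited intensity columns used here give each spot's mean brightness and its median local background, not normalized. The deposited log10 ratios of Cy5 over Cy3 were not used.

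Cy3 was background-corrected with normexp (offset 50), spots with outlier flags and the 2075 control spots among 62976 were left out, and log2 values were quantile-normalized over the 8 arrays in limma 3.58.1 (R 4.3.3, data.table version 1.17.8). The offset understates differences of dim probes. The 58201 probes were averaged over spots, and of 34209 with a RefSeq accession 31358 matched a current symbol. The probe with the highest mean over the 8 arrays stood for a gene. Arrays were averaged per line, and lmFit and eBayes compared 2 lines with 2 (2 residual degrees of freedom), with Benjamini-Hochberg adjustment over genes well above background on both arrays of at least 2 lines. The method was tested on simulated data. Later steps used Python 3.11.15, numpy 2.4.6, pandas 2.3.3 and matplotlib 3.10.9.

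A fold bound was set where no array of a side was well above background, against the higher of that array's lowest measurable signal and the probe's own. Named genes were the 12 with the widest gap in each direction among those with a RefSeq symbol and a gap of at least 1 log2 unit, since none passed the test, with near-identical copies of a family counted once, plus members of the 18 gene lists and GINS1. Some genes that the rule covers are not reported here by name, 1 of them among the 12 lower, though counts over lists include them. The members and lists were chosen with earlier results of these data known. A few listed symbols (ERO1A, AKR1C2, GSTA1, LYZ, CD68 and HBA1) were not analysed here. Arms were cut at a whole-megabase centromere position and kept with at least 20 genes. Precision is limited by the number of arrays and lines, and p-values measure the spread between lines. Alternatives were other background corrections, scalings, filters, probe summaries and variance models, the Cy5 channel, and leaving out each array and each line.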

Additional observations from a re-analysis of the deposited data

Results flagged for a closer look

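On the array HCT116 replicate 1 the median Cy3 brightness, with background not subtracted, was 25.02 and the median local background was 17. Both were far from the other arrays of its side, which had medians of 21.1 to 21.7 and a background of 14. The brightness of that array therefore includes its higher background. On the array 786-O replicate 2 the median brightness was 19.82, below the other renal arrays. The Cy3 level of CST6 on 786-O replicate 2 was 5.78, while the other renal arrays were at or below 5.73, and all 4 were not well above background. These were the values, among 8 groups of array measures and 48 groups of named-gene levels with 4 arrays each, that passed Dixon's test for a value apart from its group. Chance gives about 1 in 20 such groups. Leaving out either array changed no count of genes by over 1.5 times.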

How the results depend on the processing

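Counts of genes passing limma's test stayed at 0 under 21 of 23 alternatives. The exceptions were the scanner's processed signal scaled by the 75th percentile, with 48 genes (36 higher in the renal lines, 12 lower), and all 8 arrays fitted with line as a random block, with 794 (484 higher, 310 lower), which draws its spread from arrays of a line (correlation 0.95). Genes with a gap of at least 1 log2 unit numbered 528 (359 higher, 169 lower) in the main analysis. They numbered 1502 (921 and 581) with background subtracted and floored at 1, 987 (639 and 348) with an offset of 10, 1850 (1084 and 766) with the processed signal, and 339 (227 and 112) where all 8 arrays had to be well above background. Under 75th percentile scaling 272 lay higher and 455 lower, against 359 and 169. Leaving out 1 line leaves fewer lines to separate. The total with 1 array or 1 line left out ran from 522 to 1517, with 352 to 808 higher and 166 to 709 lower. Without both arrays of A498 it was 966, without 786-O 1273, without MDA-MB-231 1517 and without HCT116 1161.

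Of 552 recomputed differences of the 24 genes with the widest gaps, 551 kept their direction. The genes were chosen for wide gaps on these same arrays, so a kept direction was nearly fixed in advance and is no support. The 35 differences that passed the test came only from the processed signal and from the fit with line as a random block. The 1 difference that changed direction was MIEF1 at -0.13 under 75th percentile scaling, where another of its probes was the brightest. Of 378 recomputed list medians 9 changed sign. HIF target genes went from 0.18 to -0.07 under 75th percentile scaling, and housekeeping genes from -0.12 to 0.05 in the Cy5 channel. The other 7 came from leaving out 1 line. Interferon-stimulated genes went from 0.71 to -0.14 without A498 and -0.13 without HCT116. Without A498, replication genes went to 0.26, p53 targets to -0.22, gut factors to -0.05 and breast genes to -0.03, and without 786-O the HIF regulators went to 0.03. The 3p median was -0.18 under 75th percentile scaling. No paired analysis was possible because replicate numbers of different lines do not mark shared samples. Signals near background limit what dim genes can show. Slide column and side of the comparison cannot be told apart.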
